A study of Mus musculus with 6 samples.

Results

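The genes described here are 10 genes of the hypoxia-inducible factor (HIF) pathway, namely *Hif1a*, *Epas1*, *Arnt*, *Vhl*, *Egln1*, *Egln3*, *Bnip3*, *Car9*, *Ankrd37* and *Adm*. They were taken by exact match of the gene symbol, and all 10 were found among the 23420 genes listed. Targets of HIF that belong to glycolysis were left aside. RNA was measured in whole mouse embryonic lungs of stage E11.5dpc, in 3 pools of control lungs (Raptorf/+; ShhCre/+) and 3 pools of mutant lungs (Raptorf/f; ShhCre/+), each made from several lungs of the same genotype. *Raptor* (gene symbol *Rptor*) encodes the scaffold protein of mTORC1. Both groups carry the Cre driver at *Shh*, which is active in the lung epithelium, and at least 1 floxed *Raptor* allele, so the control lungs are heterozygous in the epithelium and RNA came from all cell types of the lung.

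HIF is a pair of proteins that switches on genes when oxygen is low. Its alpha subunit (encoded by *Hif1a* or *Epas1*) is made continuously and is destroyed when oxygen is plentiful, because the prolyl hydroxylases encoded by the *Egln* genes mark it for the ubiquitin ligase that contains the von Hippel-Lindau protein (*Vhl*). Its beta subunit (*Arnt*) is stable. HIF activity is therefore set largely at the level of protein, and the RNA of its target genes is a closer readout of it than the RNA of its subunits. In cell culture, mTORC1 is known to raise the synthesis of the HIF-1 alpha protein, and in the lung *Epas1* is known for its expression in endothelium.

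The complex binds the hypoxia response element, whose core reads ACGTG or GCGTG. Promoter windows of RefSeq (GRCm38.p6, 250 bases before to 50 bases after the start of transcription) were matched by symbol for 9 of the 10 genes and not for *Epas1*. ACGTG was found on either strand in 6 of the 9 windows, against 21.8% of all 27025 genes with a window. Either core was found in 8 of the 9, against 46.7% of all genes. *Arnt* and *Adm* held GCGTG alone and *Vhl* held neither. The stretch around the ACGTG nearest to the start of transcription is given for these 6 genes, so that the letters can be read beside the levels of these genes. Each is written 5′ to 3′ on the strand of the gene, and capitals mark ACGTG or, where it lies on the other strand, CACGT (in *Bnip3* both, which overlap).

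*Hif1a* (chr12:73907777-73907821, + strand): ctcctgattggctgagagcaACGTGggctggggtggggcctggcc

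*Egln1* (chr8:124949298-124949342, - strand): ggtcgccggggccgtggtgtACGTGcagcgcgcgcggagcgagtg

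*Egln3* (chr12:54204079-54204123, - strand): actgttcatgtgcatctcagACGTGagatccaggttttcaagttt

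*Bnip3* (chr7:138909589-138909633, - strand): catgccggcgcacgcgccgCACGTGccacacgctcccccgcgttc

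*Car9* (chr4:43506988-43507025, + strand): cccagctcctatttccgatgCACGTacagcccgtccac

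*Ankrd37* (chr8:45999851-45999876, - strand): gcacatgtcagtgtttgggtACGTGa

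These cores began 70 bases before the RefSeq start of transcription in *Hif1a*, 68 in *Egln1*, 229 in *Egln3*, 108 in *Bnip3*, 18 in *Car9* and 6 in *Ankrd37*. The gene spans given below are of GENCODE and can reach further upstream. In *Hif1a*, *Egln1*, *Car9* and *Ankrd37* the core therefore lies inside the GENCODE span. In *Bnip3* the core lies within CACGTG, the palindromic E-box, which holds ACGTG on both strands. A match of letters does not show that the complex binds there.

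The values are normalized counts deposited by the authors, that is, reads scaled by a factor for each library. The underlying reads could be recovered and numbered 20197642 to 21276090 per library. The lung transcription factor gene *Nkx2-1* was present in every pool (normalized counts of 1977 to 2686), and so was *Tbx4* of the lung mesenchyme (3045 to 4491). *Rptor* itself had 2199 ± 77.0 in control and 2103 ± 69.1 in mutant pools (SD, n = 3 each, log2 fold change -0.06, limma adjusted p = 0.584), and the groups overlapped. This count spans the whole gene in all cells and so is no check of the deletion in the epithelium. In these whole lungs the summed level of 20 epithelial markers was 18226 to 22507 in control and 14392 to 15547 in mutant pools. At an unadjusted p under 0.05, held by 13.6% of all tested genes, 18 of the 20 were lower in the mutant and 1, *Krt19*, was higher. Their log2 fold changes ran from -0.97 (*Cdh1*) to 0.44 (*Krt19*), with *Shh* at -0.03. A smaller number of cells of a type cannot be told apart from less RNA per cell of some or all of these genes. Control pool 3 held the highest value of the 6 pools in 25.4% of all tested genes.

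The 10 genes were compared between the groups with limma on log2(normalized count + 1), with Benjamini-Hochberg adjustment over 17168 tested genes, and all 10 passed the filter on low values. None had an adjusted p under 0.05 (0 of 10, against 0.501% of all tested genes). An unadjusted p under 0.05 was found for 2, *Epas1* and *Arnt*, against 13.6% of all tested genes, and both were higher in the mutant lungs. The values of the groups did not overlap for 3 of the 10 (*Epas1*, *Arnt* and *Vhl*), against 20.2% of all tested genes. On the recovered reads, 0 of the 10 passed an adjusted p of 0.05 with edgeR and 1, *Epas1*, passed with DESeq2 (against 1.93% of the genes to which DESeq2 gave an adjusted p). Of the 10 genes, 6 were higher and 4 lower in the mutant, and the median log2 fold change was 0.04, beside -0.0021 for all tested genes. The labels do not say whether pools came from separate litters, and p-values measure only the spread between these pools.

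**Figure D1:**
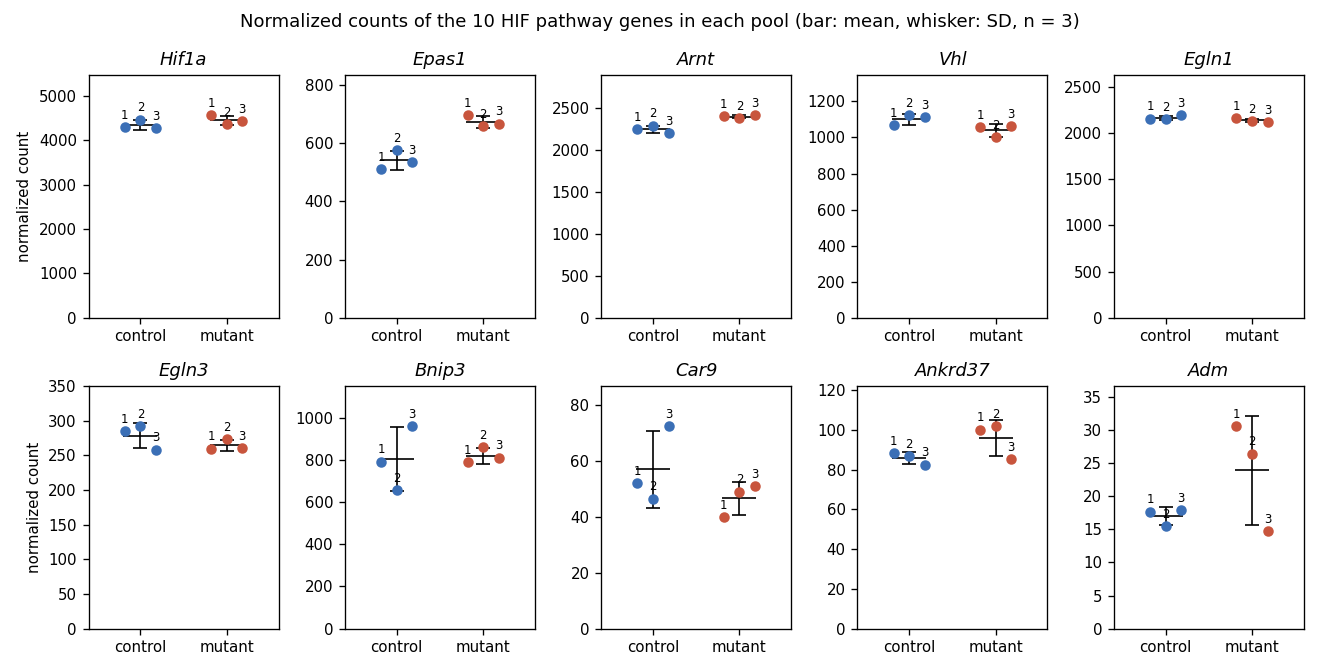
Normalized counts (vertical axis from 0) of the 10 genes in each control (blue) and mutant (red) pool, with pool numbers beside the points, the mean as a bar and the SD as whiskers (n = 3). *Epas1* separates the groups most clearly, with 511 to 576 in control and 658 to 696 in mutant pools, while *Bnip3*, *Car9* and *Adm* show the widest spread within a group.

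Of the 2 alpha subunits, *Epas1* was higher in the mutant lungs and *Hif1a* was near its control level. *Epas1*, which encodes HIF-2 alpha, spans bases 86753700 to 86833410 of chromosome 17 (GRCm38). Its normalized count was 511, 576 and 535 in control pools 1, 2 and 3 against 696, 658 and 666 in mutant pools 1, 2 and 3, and all values below follow this order of pools. Every mutant pool was above every control pool (exact permutation test, p = 0.1, the smallest that 3 pools against 3 allow). The means were 541 ± 33.2 in the controls and 673 ± 19.9 in the mutants (SD, n = 3), a ratio of means of 1.25 and a log2 fold change of 0.32 (SE 0.07, adjusted p = 0.0766 with limma). The adjusted p was 0.0706 with edgeR and 0.0450 with DESeq2. With limma it was 0.0452 without control pool 2 and 0.0330 without control pool 3. It was 0.304 without control pool 1, and 0.246, 0.215 and 0.341 without mutant pools 1, 2 and 3. The call thus depends on the pools and the tool used, while the direction was the same in each. Without control pool 3 the unadjusted limma p of *Epas1* was 0.000680, beside 0.000696 with all pools. In that fit 468 of all tested genes passed the adjusted threshold, beside 86 with all pools.

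*Hif1a*, which encodes HIF-1 alpha, lies on chromosome 12 from 73901375 to 73947530. It was the most abundant of the 10, at 4301, 4462 and 4267 in the controls against 4563, 4366 and 4431 in the mutants. The groups overlapped, and the means of 4343 ± 104 and 4453 ± 101 differed by about the spread between pools. The log2 fold change was 0.04 (SE 0.04, adjusted p = 0.737), with a 95% interval of 0.966 to 1.09 for the fold.

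*Arnt*, the gene of the shared beta subunit, lies on chromosome 3 from 95434388 to 95497240. Its normalized count was 2251, 2292 and 2199.6 in the controls against 2403, 2381 and 2417 in the mutants. The groups did not overlap, but the difference was small, with means of 2248 ± 46.5 and 2400.1 ± 18.2 (SD, n = 3). Its log2 fold change was 0.09 (SE 0.04, adjusted p = 0.336 with limma).

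The balance between *Epas1* and *Hif1a* was then examined within each pool, where the size factor of the library cancels. The log2 ratio of *Epas1* to *Hif1a* was -3.07, -2.95 and -3.00 in the controls against -2.71, -2.73 and -2.73 in mutant pools. All 3 mutant ratios were above all 3 control ratios, with a difference of 0.28 (exact permutation test, p = 0.1). Per kb of exon, *Epas1* stood at 0.131 of the level of *Hif1a* in control lungs and at 0.159 in mutant lungs, so *Hif1a* was the more abundant transcript in every pool.

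Cell type markers moved with *Epas1*. The summed level of 12 endothelial markers was 14734 to 16910 in control and 17333 to 17873 in mutant pools. At an unadjusted p under 0.05, held by 13.6% of all tested genes, 7 of the 12 were higher in the mutant and 0 lower. Their median log2 fold change was 0.18, the mean of the 12 differed by 0.17 on the log2 scale, and *Kdr*, the VEGF receptor gene, was at -0.01. The summed level of 12 mesenchymal markers was 96292 to 102538 in control and 117309 to 125030 in mutant pools. Most of this sum is *Col1a1*, *Col1a2* and *Col3a1*. The median log2 fold change of the 12 was 0.16, from 0.03 (*Foxf1*) to 0.64 (*Fgf10*). Of the 12, 6 were higher at an unadjusted p under 0.05 and 0 lower. With each library scaled to the endothelial markers, an alternative added after seeing the data, the log2 fold change of *Epas1* was 0.15 (limma adjusted p = 0.200), and scaled to the mesenchymal markers it was 0.09 (adjusted p = 0.365). These scalings lower all genes in the mutant alike, with a median over all tested genes of -0.17 and -0.23. Relative to that median *Epas1* was at 0.32 under both, the same as in the unscaled comparison. Such scaling moves all genes by nearly the same amount, so this sameness is built in and carries no information on cell types. The part of cell numbers in the difference of *Epas1* was not tested.

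**Figure D2:**
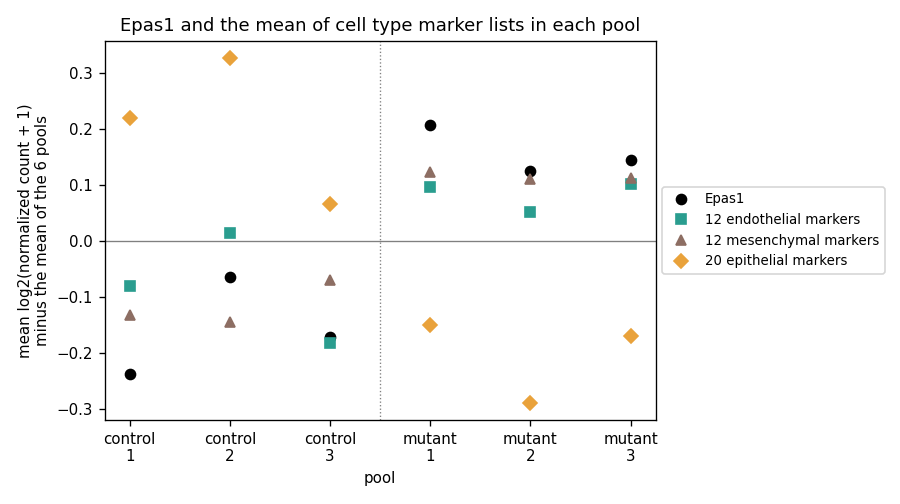
*Epas1* (black) and the mean of 12 endothelial, 12 mesenchymal and 20 epithelial markers in each pool, as log2(normalized count + 1) minus the mean of the 6 pools. *Epas1* lay between -0.24 and -0.06 in control pools and between 0.13 and 0.21 in mutant pools, the endothelial and mesenchymal means moved the same way, and the epithelial mean moved the opposite way.

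By the root mean square distance between centred log2 values over the 6 pools, among genes with a mean normalized count of at least 100, the genes whose pattern was most like that of *Epas1* were *St8sia4* (distance 0.04), *Grasp* (0.04) and *Col1a2* (0.05). *Col1a2*, a fibrillar collagen gene of the mesenchyme, had a log2 fold change of 0.34. The genes nearest to *Arnt* were *Trabd* (0.0074), *Arf4* (0.0089) and *Ndn* (0.0094), each with a log2 fold change of 0.09 or 0.10. All were picked from 11457 genes by their values in these same 6 pools, so the likeness of their fold changes follows from the choice.

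The oxygen-sensing side of the pathway differed little between the groups. *Vhl* lies on chromosome 6 from 113623959 to 113631633 and had normalized counts of 1067, 1123 and 1112 in the controls against 1055, 1000.1 and 1062 in the mutants. The 3 mutant pools were below the 3 control pools, with control pool 1 and mutant pool 3 the closest pair. The log2 fold change was -0.08 (SE 0.05, adjusted p = 0.515 with limma), with an interval of the fold of 0.872 to 1.02.

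*Egln1* encodes the main prolyl hydroxylase of the alpha subunits and lies on chromosome 8 from 124908587 to 124949324. Its normalized count was 2155, 2148 and 2191 in the controls against 2158, 2129 and 2117 in the mutants, the narrowest spread of the 10 genes relative to the mean within control pools (coefficient of variation 1.06%). The fold was 0.986 as a ratio of means, with a 95% interval of 0.928 to 1.05 from limma (adjusted p = 0.869).

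*Egln3*, a hydroxylase gene that is itself induced by HIF and so serves as a readout as well as a sensor, lies on chromosome 12 from 54178981 to 54203860. It had 285, 292 and 258 in the controls against 259.5, 274 and 260.1 in the mutants. Control pool 3 was the lowest of the 6. The means were 279 ± 17.8 and 264 ± 7.93 (SD, n = 3), and the log2 fold change was -0.07 (SE 0.09, adjusted p = 0.756). The log2 ratio of *Egln3* to *Egln1* within a pool differed by -0.05 between the groups (exact permutation test, p = 0.5), with overlap.

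A further 17 genes of the HIF machinery, from a list of partners, sensors, degradation factors and cofactors, gave a similar picture. Of these, 0 had an adjusted p under 0.05 with limma, beside 0.501% of all tested genes. An unadjusted p under 0.05 was found for 4, of which 2 were higher and 2 lower, beside the 13.6% of all tested genes. The groups did not overlap for 2 higher and 2 lower genes, beside 20.2% of all tested genes. The median log2 fold change of the 17 was -0.01. *Cited2*, which encodes an inhibitor that competes with HIF for its coactivators and is itself a HIF target, was at 885, 898 and 862 in the controls against 1002, 965 and 1039 in the mutants, without overlap (log2 fold change 0.18, adjusted p = 0.166). *Hif3a*, another alpha subunit gene, with isoforms that restrain the others, had a log2 fold change of 0.14 (adjusted p = 0.283). Its mean level per kb of exon was 448 in control and 496 in mutant pools, above that of *Epas1*.

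*Hsp90aa1*, the gene of a chaperone that holds HIF-1 alpha stable, was at 18049, 18560.5 and 18730.3 in the controls against 17085, 17079.7 and 16312 in the mutants (log2 fold change -0.13, adjusted p = 0.159). *Hif1an*, the gene of the asparagine hydroxylase that blocks coactivator binding, had means of 2873 ± 73.8 and 2685 ± 92.3 (log2 fold change -0.10, adjusted p = 0.362). The values of both genes did not overlap between the groups. The other 13 genes of this list lay between -0.10 and 0.12 on the log2 scale.

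**Figure D3:**
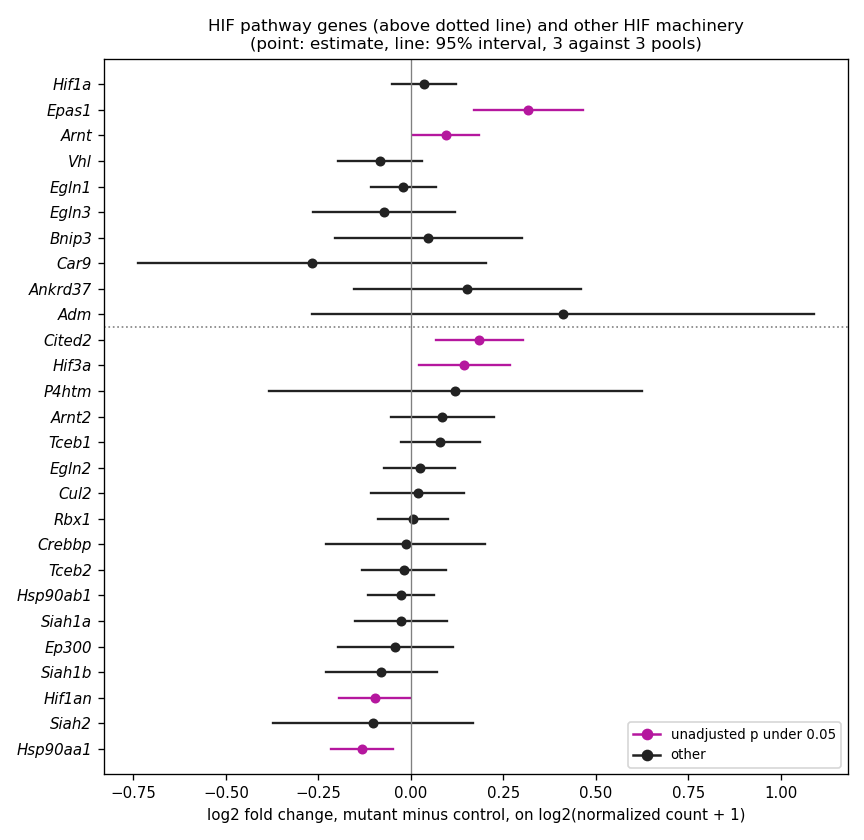
Log2 fold change of mutant minus control (horizontal axis, on log2(normalized count + 1)) with its 95% interval for the 10 genes (above the dotted line) and 17 other genes of the HIF machinery, in magenta where the unadjusted p was under 0.05. *Epas1* at 0.32 stands apart from the other subunit and sensor genes, and *Adm*, *P4htm* and *Car9* have the widest intervals.

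The remaining 4 genes are HIF targets, and for each of them the groups overlapped. *Bnip3*, whose product promotes mitophagy under low oxygen, lies on chromosome 7 from 138890836 to 138909519. Its normalized count was 791, 657 and 960.2 in the controls against 788, 861 and 811 in the mutants, so that control pools 2 and 3 held the lowest and the highest value of the 6. The means of 803 ± 152 and 819.8 ± 37.4 (SD, n = 3) gave a log2 fold change of 0.05 (SE 0.11, adjusted p = 0.897 with limma) and a 95% interval of the fold of 0.867 to 1.23. Without control pool 2 the log2 fold change was -0.09. Its paralog *Bnip3l*, given for comparison and named outside the rule for named genes, had a log2 fold change of 0.03, and the log2 ratio of *Bnip3l* to *Bnip3* within a pool differed by -0.02 (exact permutation test, p = 0.9).

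*Car9*, which encodes carbonic anhydrase IX, a cell surface enzyme that regulates pH and a widely used marker of hypoxia, lies on chromosome 4 from 43506966 to 43513729. It was low in all pools, at 52.1, 46.5 and 72.6 in the controls against 39.8, 49.0 and 51.0 in the mutants, from 39 to 73 recovered reads. Control pool 3 was the highest and the other 5 pools lay between 39.8 and 52.1. The log2 fold change was -0.27 (SE 0.21, adjusted p = 0.630 with limma), and without control pool 3 it was -0.08. The interval of the fold was 0.599 to 1.15.

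*Ankrd37*, which encodes an ankyrin repeat protein and is a direct HIF-1 target, lies on chromosome 8 from 45996902 to 46005707. It had 88.4, 86.8 and 82.5 in the controls against 100.1, 102 and 85.4 in the mutants. Mutant pool 3 lay within the control range and the other 2 mutant pools lay above it. The log2 fold change was 0.15 (SE 0.14, adjusted p = 0.679). Of its exon bases, 22.7% are also exon of *Lrp2bp* and 3.70% of *Ufsp2* on the opposite strand, and since counting by strand is not stated in the sources used here, reads in these parts cannot be assigned to 1 gene. Over the 6 pools *Lrp2bp* had a mean normalized count of 6.32 and *Ufsp2* of 726, against 90.9 for *Ankrd37*. For *Bnip3* and *Car9*, 22.3% and 9.29% of the exon bases are shared with genes on the opposite strand that have no row in the table used here. For *Hif1a*, 330 exon bases are shared in this way, and 148 with a gene of the same strand.

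*Adm* encodes adrenomedullin, a vasodilator peptide, and lies on chromosome 7 from 110627661 to 110629820. It was the least abundant of the 10, at 17.7, 15.5 and 17.9 in the controls against 30.7, 26.5 and 14.7 in the mutants, from 15 to 30 recovered reads. The highest value and the lowest value were both in mutant pools. The log2 fold change of 0.41 was the largest in size of the 10 and had a standard error of 0.31 (limma adjusted p = 0.599). It was 0.71 without mutant pool 3 and 0.21 without mutant pool 1. The interval of the fold was 0.830 to 2.13, with a coefficient of variation of 7.79% in the controls and 34.5% in the mutants.

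A further 41 HIF targets outside glycolysis were examined for comparison. With limma, 0 of the 41 had an adjusted p under 0.05, beside 0.501% of all tested genes. An unadjusted p under 0.05 was found for 9 (22.0%, beside 13.6% of all tested genes), with 6 higher and 3 lower in the mutant. The groups did not overlap for 9 higher and 4 lower genes of the 41, beside 20.2% of all tested genes. The list thus held genes on both sides, with 24 higher and 17 lower in all and a median log2 fold change of 0.0091. *Vegfa*, the main angiogenic target, named outside the rule, was at 2144 ± 108 in control and 2156 ± 39.3 in mutant pools (SD, n = 3), with a log2 fold change of 0.0091 (95% interval of the fold 0.935 to 1.08).

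The 6 higher genes were *Edn1*, *Ppp1r3c*, *Angptl4*, *Lox*, *Ddit4* and *Plod1*. *Edn1*, which encodes the vasoconstrictor endothelin-1 of endothelium, was at 50.1, 49.6 and 62.6 in the controls against 87.9, 70.6 and 86.4 in the mutants (log2 fold change 0.59, limma adjusted p = 0.176). *Ddit4*, which encodes REDD1, an inhibitor of mTORC1 that is induced by hypoxia and by other stresses, was at 1065, 1066 and 1059.6 in the controls against 1270.1, 1129 and 1295 in the mutants (log2 fold change 0.21, adjusted p = 0.164). In both genes every mutant pool was above every control pool. *Ppp1r3c*, a glycogen-targeting phosphatase subunit gene, had a log2 fold change of 0.55 and *Angptl4*, the gene of a lipoprotein lipase inhibitor, 0.28. The collagen-modifying genes *Lox* and *Plod1* had 0.25 and 0.15, while the collagen genes *Col1a1* and *Col1a2* among the mesenchymal markers had 0.49 and 0.34.

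The 3 lower genes were *Ak4*, *Car12* and *Cxcr4*. *Ak4*, which encodes a mitochondrial adenylate kinase, was at 685, 606 and 819 in the controls against 521, 480.4 and 496 in the mutants (log2 fold change -0.48, limma adjusted p = 0.0734, the lowest adjusted p of the 41). *Car12*, a second membrane carbonic anhydrase gene, was at 137, 117 and 177 in the controls against 100.1, 100.01 and 102 in the mutants (log2 fold change -0.48, adjusted p = 0.207). *Cxcr4*, the gene of a chemokine receptor, had means of 501 ± 25.6 and 413 ± 26.9 (log2 fold change -0.28, adjusted p = 0.151). The groups did not overlap for these 3 genes. The summed level of 8 cardiac markers was also lower in the mutant, at 1022 to 1158 in control and 741 to 858 in mutant pools. The log2 fold changes of these markers ran from -1.54 (*Nkx2-5*) to 0.05 (*Myh7*), with *Tnnt2* at -0.03 and *Nppa* at -0.07. The part of the cardiac markers in these differences was not tested, nor was that of the epithelial markers.

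**Figure D4:**
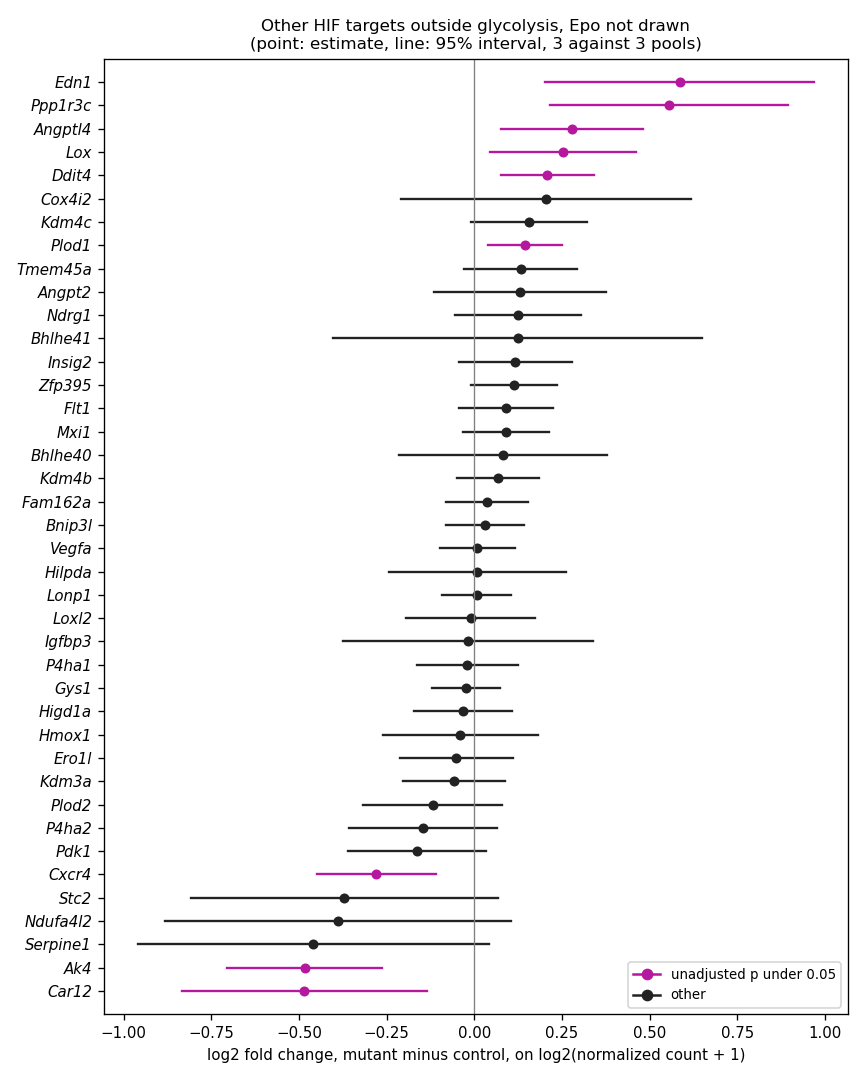
Log2 fold change of mutant minus control (horizontal axis, on log2(normalized count + 1)) with its 95% interval for 40 of the 41 other HIF targets, in magenta where the unadjusted p was under 0.05 (*Epo*, with 2 to 12 recovered reads, is not drawn). The estimates run from -0.48 to 0.59 and lie on both sides of 0, and classic targets such as *Vegfa* and *Bnip3l* lie near 0.

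*Bnip3* and some other targets varied more among the control pools than between the groups. Control pool 3 held the highest value of the 6 pools in 14 of the 41 other targets (34.1%, beside 25.4% of all tested genes), and control pool 2 held the lowest in 16 (39.0%, beside 18.5%). *Bnip3* had both, and *Car9* had its highest value in control pool 3, with coefficients of variation of 18.9% and 24.1% in control pools against 4.56% and 12.8% in mutant pools. Not all targets did so, since *Egln3* and *Ankrd37* had their lowest value in control pool 3. The mean of 8 erythroid markers, relative to the 6 pools, was 0.01, -0.41 and 0.44 on the log2 scale in control pools 1, 2 and 3 and -0.15 to 0.07 in mutant pools. None of these 8 had an unadjusted p under 0.05 between the groups (0 of 8). The haemoglobin genes *Hba-a1* and *Hba-a2* were listed at 0 in every pool, while *Hbb-y* was at 49708 to 62073 and *Hba-x* at 37940 to 50493. The reason for these zeros was not tested. The mean of 8 cardiac markers was 0.38, -0.02 and 0.46 in the controls and -0.39 to -0.18 in the mutants, and 3 of the 8 were lower at an unadjusted p under 0.05. The summed level of 8 macrophage markers was 1804 to 2646 in the controls and 2346 to 2431 in the mutants, with 0 of 8 at such a p. The share of all tested genes at such a p, in either direction, was 13.6%. Whether carried-over blood or heart tissue takes part in the spread of these targets was not tested.

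**Figure D5:**
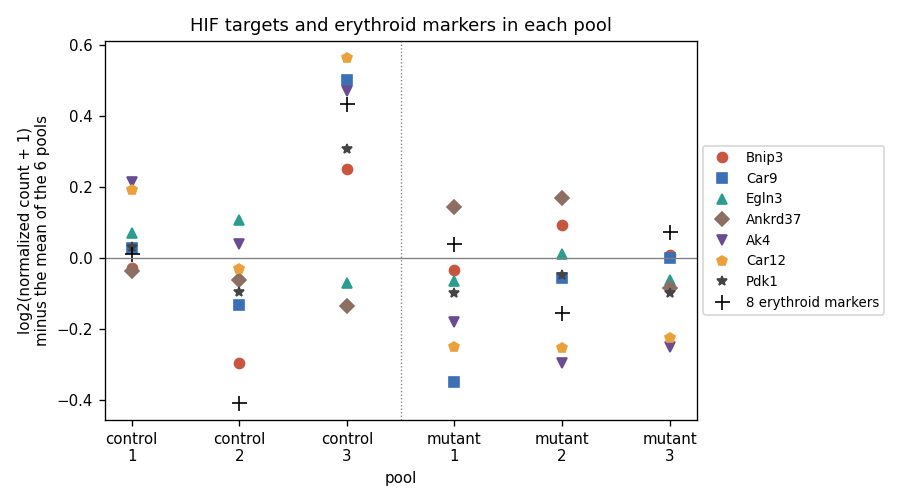
*Bnip3*, *Car9*, *Egln3*, *Ankrd37* and 3 other HIF targets (*Ak4*, *Car12* and *Pdk1*, picked for this plot after their values were seen) with the mean of 8 erythroid markers (crosses), as log2(normalized count + 1) minus the mean of the 6 pools. In control pool 3 *Car12*, *Car9*, *Ak4*, the erythroid mean, *Pdk1* and *Bnip3* lay at 0.25 to 0.56, while *Egln3* and *Ankrd37* lay below 0.

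Levels were set side by side per kb of exon (all exons of the gene in GENCODE M21 joined), which adjusts for the annotated length of each gene. The lengths of the transcripts present in these lungs were not measured, so the order between genes holds for the annotated length only. In control pools *Hif1a* had 724 to 757 normalized counts per kb, *Egln1* 598 to 609.5, *Vhl* 356 to 375, *Bnip3* 290.1 to 424, *Arnt* 275 to 286, *Egln3* 97.1 to 109.8, *Epas1* 91.4 to 103, *Ankrd37* 53.6 to 57.4, *Car9* 20.2 to 31.5 and *Adm* 9.57 to 11.1. *Vhl* and *Bnip3* overlapped, and so did *Egln3* and *Epas1*, while the other neighbours in this order did not. In mutant pools *Epas1* had 118 to 124 and *Egln3* had 97.5 to 103, so that these 2 genes no longer overlapped, while *Car9* (17.3 to 22.2) and *Adm* (9.09 to 18.9) did.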

How the data were processed

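The authors pooled embryonic lungs by genotype and sequenced the RNA on the BGISEQ-500 platform. Their processing notes name Trim Galore, HISAT2, featureCounts, DESeq2 and the build mm10, without versions or order. The deposited signal values are normalized counts. Columns of the authors' own means, fold changes and p-values were not used.

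In all 6 libraries every value was a whole multiple of 1 step (100% of values, tolerance 0.01), which gave back the reads. The design had named limma for normalized counts, so limma 3.58.1 in R 4.3.3 (trended eBayes on log2(value + 1), genes with at least 1 in at least 3 libraries, adjusted p threshold 0.05) was used across all genes, with edgeR 4.0.16 and DESeq2 1.42.0 on the reads as alternatives. Intervals are limma's, at 95%. The added 1 shrinks fold changes of low genes. The fits were tested on simulated data.

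The 10 genes and the lists of machinery, targets and markers were chosen with earlier results of these data known. Named are the 10 genes, list members with an unadjusted p under 0.05 (otherwise the 3 with the lowest p), *Rptor*, and the 3 nearest patterns of members with such a p. In the lists, 3 genes matched by an older symbol. Gene coordinates are of GENCODE M21 (GRCm38, the same assembly as mm10).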

Additional observations from a re-analysis of the deposited data

How the results depend on the processing

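The count of the 10 genes past an adjusted p of 0.05 stayed at 0 with limma without the trend, upper-quartile and TMM scaling, no filter, at least 10 in every library, a pseudocount of 0.1, and edgeR. It was 1 (*Epas1*) with DESeq2 and 0 to 1 when a pool was left out. It was 9 with each library scaled to the 20 epithelial markers, where 10831 of 17363 tested genes passed. That scaling shifts all genes upward in the mutant, since the median of all tested genes moved from -0.0021 to 0.40, and it turned *Vhl* to 0.32, *Egln1* to 0.39, *Egln3* to 0.33 and *Car9* to 0.13. Relative to that median *Epas1* was at 0.32, as without the scaling, which is built in because all genes move alike. The count at an unadjusted p under 0.05 was 1 without the trend and with DESeq2, 9 with the epithelial scaling, and 1 to 2 when a pool was left out. The genes behind this count changed. *Epas1* passed without the trend, with DESeq2 and with any pool left out. *Arnt* did not pass without the trend or with DESeq2, and with a pool left out it passed only without control pool 2. The second gene was *Bnip3* without control pool 3 and *Adm* without mutant pool 3. For the other machinery the count was 2 without the trend, 16 with the epithelial scaling and 2 to 5 with a pool left out. For the other targets it was 31 with the epithelial scaling and 8 to 15 with a pool left out (15 without control pool 2). Of all tested genes, 66.2% had such a p with the epithelial scaling and 11.7% without the trend. With a pool left out it was 9.20% to 16.9% of all tested genes (16.1% without control pool 2). *Epas1* stayed between 0.28 and 0.36 over left-out pools (limma adjusted p 0.0330 to 0.341), and *Bnip3* between -0.09 and 0.18 (-0.0888 without control pool 2). The replicate numbers of control and mutant pools share no known source, and the deviations of same-numbered pools correlated at -0.02, 0.10 and 0.03. With the replicate block, 0 of the 10 genes passed the adjusted threshold and 1 (*Epas1*) an unadjusted p under 0.05. *Adm* (0.21 to 0.71 over left-out pools) and *Car9* (-0.40 to -0.08) rest on few reads. Over all tested genes the count past the adjusted threshold was 86, against 8 without the trend, 277 with DESeq2, 10831 with the epithelial scaling, and 1 to 468 with a pool left out (468 without control pool 3).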
